A study of Drosophila melanogaster with 12 samples.

Results

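The transcripts described here are those of 10 genes that primary spermatocytes of the *Drosophila* testis need to enter the meiotic divisions. They were taken from the mRNA-seq count table by symbol, as the 5 genes of the testis meiotic arrest complex (tMAC), *aly*, *comr*, *topi*, *tomb* and *achi*, and the 5 genes for testis-specific TBP-associated factors (tTAFs), *can*, *sa*, *mia*, *nht* and *rye*. All 10 were among the 15367 rows of the table, where *rye* carries its other name, *Taf12L*, and all 10 passed the filter on low counts.

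The study sequenced rRNA-depleted RNA from whole testes of flies aged 0 to 2 days, with 3 libraries of wild type and 3 of *klp10A* RNAi (labelled klp10ARNAi) and 300 pairs of testes per library. In *klp10A* RNAi, nos-gal4 drove a UAS hairpin against *klp10A*, a microtubule-depolymerizing kinesin, in the germline. The nos driver acts in germline stem cells and early germ cells, whereas the RNA came from all cells of the testis, and the labels do not say whether the wild type flies carried the driver.

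Germ cells leave the mitotic spermatogonial divisions as spermatocytes, grow through a long meiotic prophase and transcribe most of the genes for meiosis and for sperm. tMAC is a testis version of the dREAM and Myb-MuvB complexes that regulate genes in other cells, and it switches on both meiotic cell cycle genes and spermatid genes. The tTAFs are testis counterparts of subunits of TFIID, the general factor that recognises core promoters, and they act on many of the same targets, in part by countering Polycomb. Males that lack tMAC or tTAF function have testes full of spermatocytes that stop before the first meiotic division, and the genes are therefore called meiotic arrest genes.

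The counts summed to 18634687 to 25536724 per library. Levels below are in normalized CPM, a gene's share of the library's counts after TMM scaling, listed for replicates 1 to 3. Fold changes are *klp10A* RNAi over wild type. They were tested by quasi-likelihood in edgeR, and p-values were adjusted (Benjamini-Hochberg) across the 12100 genes and transposable elements (TEs) tested. The threshold was an adjusted p-value of 0.01, and only features below it are called changed. The knockdown was visible in the targeted gene. *Klp10A* had 76.7, 57.0 and 73.6 CPM in wild type and 13.2, 14.4 and 13.1 CPM in *klp10A* RNAi, and it fell by 2.35 on the log2 scale (SE 0.16, adjusted p = 0.00105 from edgeR). The identifiers below are those of FlyBase, and positions are not given because the gene table at hand uses a later genome build than the counts.

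None of the 10 genes passed the threshold, and all 10 had a log2 fold change above 0, as 50.8% of all features did. At this threshold edgeR called 24 of the 12100 features higher, or 0.198%, and 2.02% in either direction. At an unadjusted p-value under 0.05, 7 of the 10 were higher, against 9.6% of all features, and the study's own choice of test, DESeq2's Wald test, put *rye* alone past an adjusted p-value of 0.01, where it had 1.02% of all features higher. At an adjusted p-value under 0.05, edgeR had *aly* and *rye* higher (1.6% of all features were), and under 0.1 it had *aly*, *topi*, *achi*, *nht* and *rye* (4.1%). The normalized CPM of the 3 *klp10A* RNAi libraries lay wholly above the 3 wild type libraries for 7 of the 10 genes, against 17.1% of all features. The median log2 fold change was 0.51 over the 10 genes and 0.01 over all features tested, whose quartiles were -0.32 and 0.25. In RNA of whole testes, a different share of cells of a type and a different amount of RNA per cell cannot be told apart. By the study's account, *klp10A* RNAi brought no noticeable change in the cell make-up of testes, in differentiation or in the cell cycle. The cell cycle figures it gives are for germline stem cells, and for differentiation it cites earlier work.

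**Figure D1:**
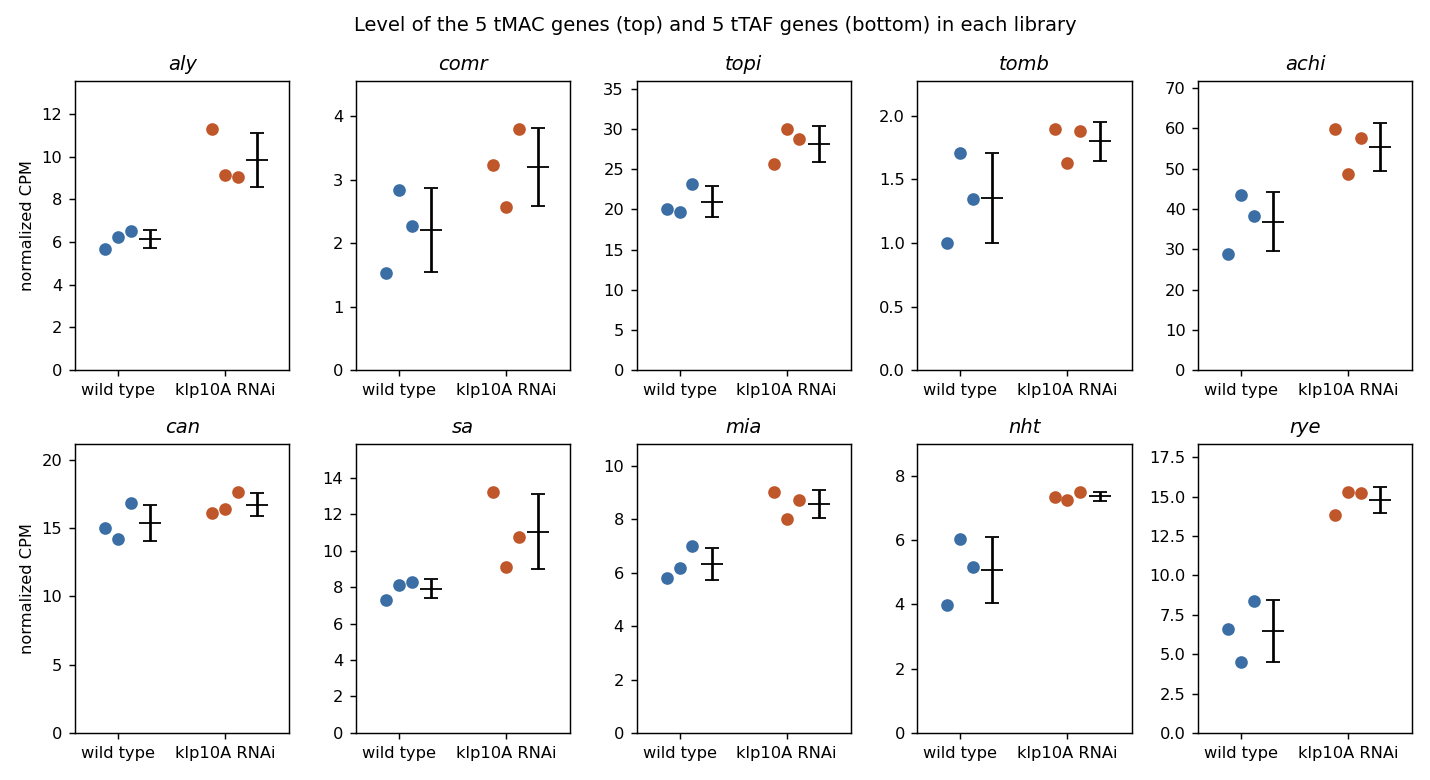
Normalized CPM (y axis, from 0) of each tMAC gene in the top row and each tTAF gene in the bottom row, with a point for each library and the mean ± SD of 3 libraries beside it. The groups do not overlap for *aly*, *topi*, *achi*, *sa*, *mia*, *nht* and *rye*, and they overlap for *comr*, *tomb* and *can*.

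Among the tMAC genes, *aly* (FBgn0004372) encodes the testis member of the LIN-9 family, which holds such complexes together. It had 5.68, 6.26 and 6.51 CPM in wild type and 11.3, 9.16 and 9.05 CPM in *klp10A* RNAi. The counts behind these were 108, 88 and 135 for wild type and 280, 231 and 217 with *klp10A* RNAi. The lowest *klp10A* RNAi library lay well above the highest wild type library. Its fold change was 1.6 (log2 0.68, SE 0.15, 95% interval 0.33 to 1.02, adjusted p = 0.0341 from edgeR), over the threshold of 0.01.

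The *topi* gene (FBgn0037751) encodes a zinc finger protein that carries tMAC to DNA. Its levels were 20.0, 19.6 and 23.2 CPM in wild type and 25.6, 30.0 and 28.7 CPM in *klp10A* RNAi, and the groups stood apart by a small margin. The fold change was 1.34 (log2 0.42, SE 0.14, adjusted p = 0.0997 from edgeR).

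The *comr* gene (FBgn0034667), whose acidic nuclear product works together with Topi, gave low counts, namely 29, 40 and 47 for the wild type libraries and 80, 65 and 91 with *klp10A* RNAi. These correspond to 1.53, 2.84 and 2.26 CPM and 3.22, 2.58 and 3.79 CPM, and wild type replicate 2 lay above *klp10A* RNAi replicate 2. With a log2 fold change of 0.55 (95% interval -0.05 to 1.14, adjusted p = 0.235 from edgeR), the counts allow no change as well as a 2.21-fold higher level. Without wild type replicate 1, the log2 fold change was 0.34.

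The thinnest data were those of *tomb* (FBgn0031715), which encodes a DNA-binding protein with CXC domains, of the LIN-54 family. The counts were 19, 24 and 28 for wild type and 47, 41 and 45 with *klp10A* RNAi, or 1.0, 1.71 and 1.35 CPM and 1.89, 1.63 and 1.88 CPM, with *klp10A* RNAi replicate 2 inside the wild type range. The log2 fold change was 0.43 (95% interval -0.13 to 0.99, adjusted p = 0.307 from edgeR), and it was 0.25 without wild type replicate 1.

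The *achi* gene (FBgn0033749) encodes a homeodomain protein of the TGIF family, and it stands next to its near-identical copy *vis*. It had 28.9, 43.4 and 38.2 CPM in wild type and 59.8, 48.6 and 57.7 CPM in *klp10A* RNAi, where every library lay above wild type. The fitted log2 fold change in edgeR was 0.59 with an SE of 0.18 and an adjusted p of 0.0895. The counts of *vis* were close to those of *achi* in every library, with ratios of *achi* to *vis* from 0.890 to 1.01, and *vis* had a log2 fold change of 0.58 (SE 0.17). Per the study's methods, TEtranscripts divides reads with several matches evenly at first and then by expectation maximization, so the split between these copies is an estimate and their values may not be independent.

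Of the tTAF genes, *rye* (FBgn0031623, *Taf12L*), the testis counterpart of *Taf12*, had the largest fold change of the 10. Its counts were 125, 63 and 174 for wild type against 344, 386 and 365 with *klp10A* RNAi, or 6.58, 4.48 and 8.38 CPM and 13.9, 15.3 and 15.2 CPM. The *klp10A* RNAi libraries lay close together, while the wild type libraries were spread widely, with replicate 2 the lowest. The fold change was 2.26 (log2 1.18, SE 0.21, 95% interval 0.69 to 1.66), and its adjusted p of 0.0163 from edgeR missed the threshold. Without wild type replicate 2, the log2 fold change was 0.98 and the adjusted p was 0.00637 from edgeR, past the threshold, while over all alternatives the adjusted p ran from 1.12e-05 to 0.0798.

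The *nht* gene (FBgn0041103) encodes the testis counterpart of TAF4, a scaffold of TFIID. It had 4.0, 6.04 and 5.16 CPM in wild type and 7.33, 7.25 and 7.51 CPM in *klp10A* RNAi. The latter libraries differed from each other far less than the wild type libraries did, and the groups did not overlap. The fitted log2 fold change in edgeR was 0.55 with an SE of 0.17 and an adjusted p of 0.0975.

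For *mia* (FBgn0014342), a TAF6 relative, the levels were 5.79, 6.19 and 6.99 CPM in wild type and 9.03, 8.01 and 8.71 CPM in *klp10A* RNAi, again without overlap. The fitted log2 fold change in edgeR was 0.44 with an SE of 0.14 and an adjusted p of 0.101. For *sa* (FBgn0002842), a TAF8 relative, they were 7.31, 8.11 and 8.29 CPM and 13.2, 9.12 and 10.8 CPM. The *sa* groups did not overlap, although *klp10A* RNAi replicate 2 stood near the top of wild type, and edgeR fitted a log2 fold change of 0.48 with an SE of 0.17 and an adjusted p of 0.125.

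The smallest fold change was that of *can* (FBgn0011569), a TAF5 relative. It had 15, 14.2 and 16.8 CPM in wild type and 16.1, 16.4 and 17.6 CPM in *klp10A* RNAi, with wild type replicate 3 above 2 of the *klp10A* RNAi libraries. The fitted log2 fold change in edgeR was 0.12 with an SE of 0.13 and an adjusted p of 0.566, and its 95% interval ran from -0.17 to 0.42. It was 0.07 without wild type replicate 2 and 0.20 without wild type replicate 3. The lower bound for *rye* (0.69 on the log2 scale) lay above the upper bound for *can*, but the difference between these genes was not itself tested. Summed over each complex, tMAC transcripts came to 57.2 to 73.8 CPM in wild type and 91.9 to 102 CPM in *klp10A* RNAi. The tTAF transcripts came to 38.7 to 45.6 CPM and 56.1 to 59.8 CPM. In both sums every *klp10A* RNAi library was above every wild type library. The tMAC sum is mostly *achi* and *topi*, with wild type means of 36.8 and 20.9 CPM, and says little on *comr* and *tomb*, with 2.21 and 1.35 CPM.

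In the gene table at hand, 3 of the 10 genes overlap another gene. Per the study's methods the libraries were made with a stranded kit, but the sources used here do not say whether the counting used strand. The partner of *tomb* is *Cap-D3*, a condensin subunit gene, with 7.94, 12.2 and 8.77 CPM in wild type and 8.74, 8.01 and 9.67 CPM in *klp10A* RNAi. The partner of *sa* is *rgn*, with 25.1, 25 and 21.1 CPM and 16.5, 15.6 and 16.7 CPM and a log2 fold change of -0.54, opposite in sign to that of *sa*. The partner of *rye* is *dcma*, which had at most 8 counts in any library and was not tested.

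For 7 of the 10 genes there is a relative that serves the general form of the complex in many tissues, and these relatives had no common direction. The *mip130* gene, the relative of *aly*, had 7.89, 10.7 and 8.91 CPM in wild type and 8.14, 7.41 and 8.67 CPM in *klp10A* RNAi, and *mip120*, the relative of *tomb*, had a log2 fold change of 0.02. For the TFIID subunit genes, the log2 fold changes were 0.00 at *Taf4*, -0.12 at *Taf5*, -0.32 at *Taf6*, 0.07 at *Taf8* and -0.36 at *Taf12*. With *vis*, the copy of *achi* that also belongs to tMAC, counted among them, 0 of the 8 relatives passed the threshold in edgeR or in DESeq2. In edgeR 1 of them, *vis*, had an unadjusted p-value under 0.05, and the median log2 fold change was -0.06. *Taf12* had 1.95, 2.2 and 1.73 CPM in wild type and 1.57, 1.35 and 1.63 CPM in *klp10A* RNAi, so that *rye* and *Taf12* stood apart between the groups in opposite directions.

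**Figure D2:**
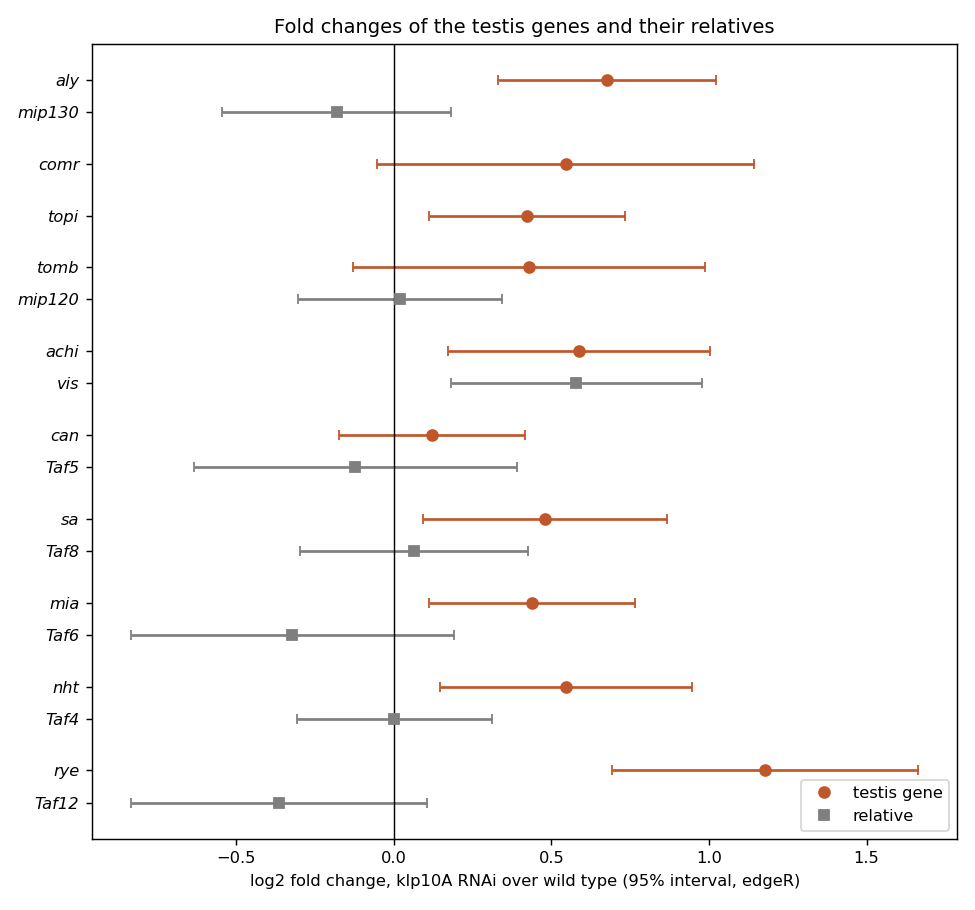
Log2 fold change (x axis) of each testis gene, in circles, and of its relative, in squares, with the 95% interval from edgeR. All 10 testis genes lie to the right of 0, *rye* farthest at 1.18 and *can* nearest at 0.12, while of the relatives *vis* alone has an interval that leaves out 0.

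The ratio of a testis gene to its relative within a library does not depend on how libraries are scaled, and it was computed for the 7 pairs after the values had been seen. For *rye* over *Taf12* the wild type libraries gave count ratios of 3.38, 2.03 and 4.83, against 8.82, 11.4 and 9.36 with *klp10A* RNAi, a difference of 1.61 on the log2 scale or 3.05-fold. For *aly* over *mip130* they gave 0.720, 0.583 and 0.730, against 1.39, 1.24 and 1.04, or 1.80-fold. For *mia* over *Taf6* they gave 0.588, 0.360 and 0.597, against 0.862, 0.927 and 0.741, or 1.67-fold. These 3 pairs showed the largest differences, with every *klp10A* RNAi library above wild type.

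The ratio also stood apart for *nht* to *Taf4* (1.47-fold) and *sa* to *Taf8* (1.32-fold). It overlapped for *tomb* to *mip120* (1.34-fold) and *can* to *Taf5* (1.17-fold). For the 5 pairs that did not overlap, the two-sided exact permutation test over the 6 libraries gave p = 0.1. It was 0.14 after adjustment over the 7 pairs. A p of 0.1 is the smallest that 3 libraries against 3 allow, and any pair without overlap must give it. The test therefore says no more than the lack of overlap does, and no pair could have passed the threshold. The p-values were 0.3 for *tomb* and 0.5 for *can*. In 2 of the 3 largest differences the relative had a log2 fold change below -0.3, and the ratio carries that change as well. Of these relatives, *Taf12* had only 31 to 39 counts per library.

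**Figure D3:**
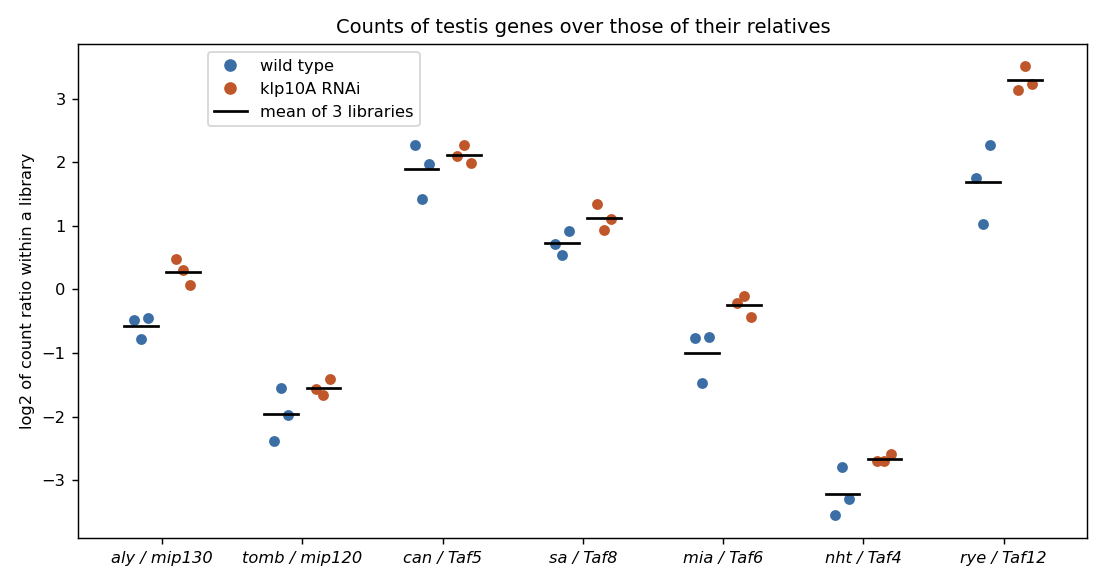
Log2 of the count of each testis gene over that of its relative (y axis) in the 3 wild type and 3 *klp10A* RNAi libraries, with a bar at each mean. The groups separate for *aly*, *sa*, *mia*, *nht* and *rye* and overlap for *tomb* and *can*, and only differences between groups within a pair are comparable, since the genes differ in length.

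The genes listed as other tMAC proteins and as other meiotic arrest genes gave values in the same range as the 10 genes, with 0 of either list past the threshold in edgeR. DESeq2 had 0 of the 4 other tMAC genes and 1 of the 7 genes listed as other arrest genes past it. The *wuc* gene, a LIN-52 relative found in tMAC, had 2.58, 4.84 and 4.87 CPM in wild type and 6.57, 6.38 and 6.92 CPM in *klp10A* RNAi (log2 fold change 0.70, adjusted p = 0.115 from edgeR). The shared subunit genes *mip40* and *Caf1* had log2 fold changes of 0.31 and 0.14. The fourth of these genes was *vis*, which is counted among the relatives as well. Of the 4, *wuc* and *vis* had an unadjusted p-value under 0.05, and the median log2 fold change was 0.45.

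Of the 7 genes listed as other arrest genes, 4 had an unadjusted p-value under 0.05 in edgeR and the median log2 fold change was 0.43. The whole list is given here, and it takes in testis bromodomain genes, for which meiotic arrest is not claimed. The largest fold change was that of *kmg* (*CG5204* in the table), a zinc finger gene that keeps genes of other tissues off in spermatocytes. It had 5.58, 8.53 and 9.16 CPM in wild type and 15.5, 13.6 and 15 CPM in *klp10A* RNAi, a log2 fold change of 0.93 (adjusted p = 0.0269 from edgeR). The testis bromodomain genes *tBRD-1* (*CG13597*) and *tBRD-2* (*CG7229*), whose products work with tTAFs, had log2 fold changes of 0.46 and 0.51. A further one, *tBRD-3* (*CG30417*), had 0.43, which is the list's median. The genes with an unadjusted p-value under 0.05 in edgeR were *kmg* and these bromodomain genes. The log2 fold changes of the remaining genes were smaller, at 0.22 for *thoc5*, 0.31 for *Nxt1* and 0.18 for the polyubiquitin gene *Ubi-p63E*, which all cells use.

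The general partners showed no shared direction. Of the 6 other dREAM genes, 3 had a log2 fold change above 0 and 3 below, with *Myb* at 0.09, *Rbf* at 0.12, *E2f2* at 0.22 and *Dp* at -0.45. Of the 9 other TFIID genes, 4 were above 0 and 5 below. *Taf1*, *Taf2* and *Taf7* had -0.32, -0.10 and -0.04, and *Taf10b*, which has a partner paralog in *Taf10*, had 0.59 (adjusted p = 0.0445 from edgeR), from 7.10, 6.61 and 8.29 CPM in wild type and 10.6, 11.8 and 10.8 CPM in *klp10A* RNAi. No gene of either list passed the threshold in edgeR or DESeq2, and each list had 1 gene with an unadjusted p-value under 0.05.

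Genes known to need tMAC or the tTAFs for their transcription were then described by the stage they serve. The meiotic cell cycle genes were *CycB*, which encodes cyclin B, *twe*, the Cdc25 phosphatase of meiosis, and *bol*, which promotes the translation of *twe*. *CycB* had 40.6, 43.0 and 53.8 CPM in wild type and 65.8, 64.7 and 63.5 CPM in *klp10A* RNAi (log2 fold change 0.50, adjusted p = 0.0881 from edgeR). *twe* had 34.4, 24.5 and 36.7 CPM and 46.8, 46.8 and 43.9 CPM (0.52), and *bol* had 248, 131 and 226 CPM and 234, 245 and 237 CPM (0.24). The groups stood apart for *CycB* and *twe* and overlapped for *bol*, whose wild type replicate 2 was far below the rest.

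The 13 spermatid genes had a median log2 fold change of 0.11. Of the 13, 2 had *klp10A* RNAi wholly above wild type, which is no larger a share than the 17.1% of all features. *Mst87F*, a sperm tail protein gene, had 502, 362 and 458 CPM in wild type and 424, 573 and 436 CPM in *klp10A* RNAi, and *Mst98Ca*, of the same family, had 445, 357 and 383 and 382, 459 and 380.3 CPM. *ocn* and *dj*, both genes of the sperm, had log2 fold changes of 0.15 and 0.01. The 2 that stood apart, named after their values were seen, were *fzo*, the mitofusin of the spermatid mitochondrial derivative, at 0.42, and *djl*, a relative of *dj*, at 0.69 (adjusted p = 0.0299 from edgeR). Of the 16 target genes, 0 passed the threshold in edgeR, 4 had an unadjusted p-value under 0.05, and DESeq2 put *djl* past it.

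**Figure D4:**
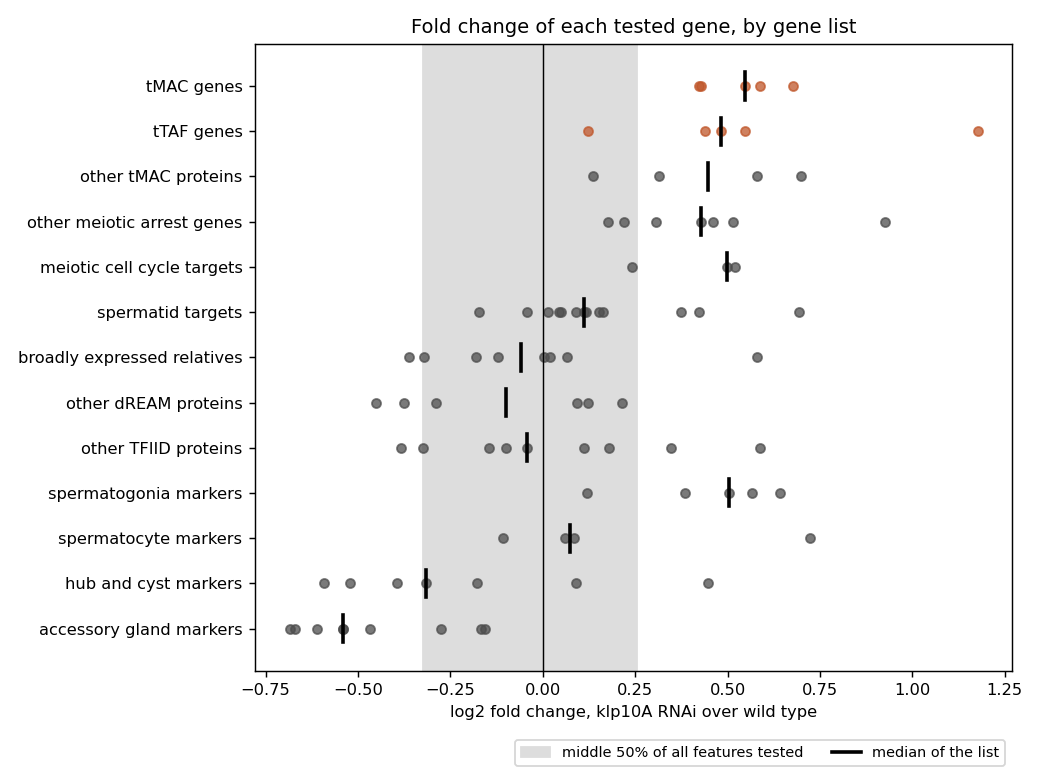
Log2 fold change (x axis) of each tested gene in 13 lists, with a bar at the list's median and the middle 50% of all features tested shaded. The tMAC and tTAF genes have medians of 0.55 and 0.48. Medians near these are those of the other tMAC proteins (0.45), the genes listed as other arrest genes (0.43), the meiotic cell cycle targets (0.50) and the spermatogonia markers (0.50). The spermatid targets have 0.11 and the spermatocyte markers 0.07.

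The genes whose levels over the 6 libraries were most like the mean pattern of the 10 genes were *MED7*, *CG13423*, *Ada2a*, *CG10931* and *oaf*. Likeness was the root-mean-square difference between log2 CPM centred on each gene's own mean, over 11048 genes of at least 1 CPM outside the lists. It ran from 0.0354 for *MED7*, a subunit gene of the Mediator complex, to 0.0473 for *oaf*. The 10 genes themselves ranged from 0.0738 at *mia* to 0.447 at *rye*, so that *rye* followed the common pattern least. *MED7* had 3.84, 4.55 and 4.58 CPM in wild type and 6.53, 6.22 and 6.75 CPM in *klp10A* RNAi, and *Ada2a*, an adaptor gene of histone acetyltransferase complexes, had 2.10, 2.42 and 2.36 and 3.51, 3.25 and 3.50 CPM. In this common pattern wild type replicate 1 was the lowest library, at -0.47 of centred log2 CPM, and *klp10A* RNAi replicates 1 and 3 were the highest, at 0.33 and 0.32.

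The libraries also differed in composition, and its part in the values above was not tested. Genes named by a CR number, mostly noncoding, took 44.1% to 58.2% of the counts in wild type and 38.7% to 51.7% in *klp10A* RNAi. With plain totals in place of TMM, the median log2 fold change of all features was 0.50, or 0.49 above that with TMM, and that of the 10 genes was 1.01. With those totals, *aly* (log2 1.17, adjusted p = 0.00484 from edgeR) and *rye* (log2 1.62, adjusted p = 1.12e-05) passed the threshold, which 2.16% of all features passed upward, while *can* had 0.60.

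Marker lists described which cells the libraries held. The 5 spermatogonial markers *bam*, *bgcn*, *nos*, *vas* and *zpg* summed to 44.1 to 45.4 CPM in wild type and 56.4 to 60.5 CPM in *klp10A* RNAi. Most of this sum was *bgcn*, with means of 32.7 and 42.8 CPM. All 5 had a log2 fold change above 0, with a median of 0.50, *bgcn* at 0.38 and *nos* at 0.64, and none passed the threshold in edgeR (2 at an unadjusted p-value under 0.05, 0 in DESeq2). Of the 4 spermatocyte markers, *Rbp4* had 9.94, 18.4 and 15.9 CPM in wild type and 24.8, 23.1 and 24.9 CPM in *klp10A* RNAi (log2 0.72), whereas *fest*, *kl-3* and *kl-5* had 0.09, -0.11 and 0.06. The list summed to 373 to 636 CPM in wild type and 542 to 573 CPM in *klp10A* RNAi, mostly from *fest*, with means of 430 and 457 CPM. Of the 4, whose median log2 fold change was 0.07, 0 passed in edgeR or DESeq2 (1 at an unadjusted p-value under 0.05 in edgeR). The 7 hub and cyst markers, of the somatic cells of the testis, summed to 69.2 to 80.1 CPM and 57.5 to 72.2 CPM, and their median was -0.32 on the log2 scale, with 0 past the threshold in either tool. Of the 7, 2 had a log2 fold change above 0 and 5 below. Of the 2 with an unadjusted p-value under 0.05 in edgeR, *eya* had 0.45 and *ptc* had -0.59, in opposite directions.

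Transcripts of tissues outside the testis were present too. Of 5 Malpighian tubule markers, *NaPi-T*, *Irk3* and *Uro* had log2 fold changes of -4.32, -3.62 and -3.82, all past the threshold, and *CapaR* had -2.24 (adjusted p = 0.0242 from edgeR). The fifth, *ZnT35C*, had -0.10, from 31.5, 32.6 and 26.8 CPM in wild type and 27.5, 31.0 and 26.4 CPM in *klp10A* RNAi, and made up most of the list's sum in *klp10A* RNAi. The list summed to 64.8 to 104 CPM in wild type and 28.9 to 38.0 CPM in *klp10A* RNAi. The 4 midgut markers summed to 5.69 to 91.9 CPM and 0.459 to 0.674 CPM, highest in wild type replicate 1, and none of the 3 tested passed in edgeR (all 3 at an unadjusted p-value under 0.05, 2 past the threshold in DESeq2). The 9 accessory gland markers summed to 1970 to 3607 CPM and 1696 to 2234 CPM, and 0 passed in edgeR or DESeq2 (4 at an unadjusted p-value under 0.05 in edgeR). All 9 had a log2 fold change below 0, with a median of -0.54. The 5 fat body markers summed to 47.1 to 69.3 CPM and 37.8 to 47.5 CPM, with *Fbp1*, *fit* and *to* at 0 to 2 counts in every library and not tested. Of the 2 tested, 0 passed in edgeR (1 at an unadjusted p-value under 0.05) and 1 in DESeq2. No library was at 0 for any tubule or midgut marker. The part of this RNA in the values of the 10 genes was not tested.

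**Figure D5:**
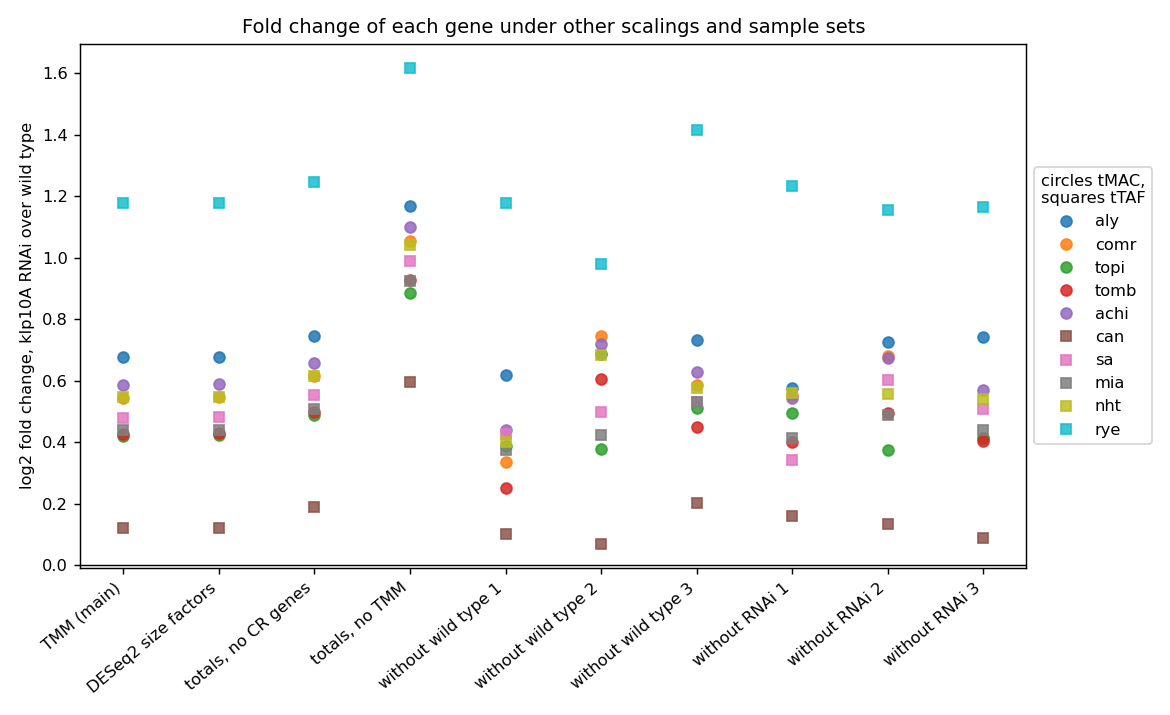
Log2 fold change (y axis) of each of the 10 genes under other scalings of the libraries and with each library left out in turn. All points lie above 0, *rye* is the highest in each setting and *can* the lowest, and plain totals move all 10 genes upward together.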

How the data were processed

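Per the sample labels, testis RNA was sequenced in 3 libraries per genotype for mRNA and 3 for small RNA, and the replicates are biological. The small RNA tables hold values per TE only and were not used. The authors mapped the mRNA reads with STAR 2.6.0a (genome build Dm3, as many as 100 alignments kept for a read). TEtranscripts then assigned them to genes and TEs. The deposited values are whole-number counts, and although the sample descriptions speak of normalized counts they sum unequally and were analysed as counts.

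Counts were tested with edgeR 4.0.16 in R 4.3.3, with TMM over genes and TEs, filterByExpr by genotype, the quasi-likelihood F-test and no covariate. SE is the log2 fold change over the root of F, and 95% intervals use its degrees of freedom. DESeq2 1.42.0, other scalings, filters and thresholds, a fit blocked by replicate number and fits without 1 library were the alternatives. The code was tested on simulated counts.

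The genes and lists come from general knowledge and were chosen with earlier results of these data known, so no p-value was adjusted over the 10 genes alone. Older symbols were matched through RefSeq synonyms, where rye is also a synonym of nAChRalpha4. The text names all 10 genes, their relatives and, in each other list, up to 4 genes that passed or else had the highest CPM, while of the cell markers it names a few. Exceptions are stated. Likeness used log2(CPM + 0.01).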

Additional observations from a re-analysis of the deposited data

How the results depend on the processing

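Each of the 10 genes kept a log2 fold change above 0 in the 14 alternatives that refitted it. The other 2 changed only the threshold. Over the alternatives, the adjusted p ran from 0.00484 to 0.160 for *aly*, 0.0142 to 0.255 for *achi* and 0.132 to 0.770 for *can*. The number of the 10 genes past the threshold was 0 with TMM in edgeR, where 0.198% of all features were higher. It was 2 with plain totals (2.16% of all features higher) and 1, *rye*, with the DESeq2 Wald test (1.02%). At an adjusted p-value under 0.05 it was 2 (1.6%), and under 0.1 it was 5 (4.1%). With each library left out it was 0 to 1, with *rye* past it without wild type replicate 2, where 43 of 12289 features were higher. Of the 16 targets, 1 passed with DESeq2, 1 under 0.05 and 2 under 0.1 (*djl* and *CycB*). Of the 8 relatives, 1 passed under 0.1.

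The number of all features past the threshold, 245 with TMM in edgeR (24 higher and 221 lower), was 524 with plain totals (261 higher and 263 lower), 781 with DESeq2, 140 with at least 10 counts in every library, 920 under 0.05 and 1685 under 0.1. With a library left out it ran from 1, without *klp10A* RNAi replicate 3, to 389, without wild type replicate 2. It was 8 without *klp10A* RNAi replicate 1 and 47 without replicate 2, so the number of calls rests on these libraries, and the cause was not tested. Totals over genes without a CR number, chosen after seeing the data, gave 202 and a median of 0.58 for the 10 genes.

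The deviations of same-numbered libraries showed no positive correlation across genes, at -0.31, -0.39 and -0.10. Between different numbers it reached 0.46, for wild type replicate 1 with *klp10A* RNAi replicate 2. With 3 libraries per group, such values cannot exclude a batch shared by replicate number. With the replicate block, 98 features passed, 92 of them among the 245, and 0 of the 10 genes did. Without wild type replicate 1, the log2 fold change of *comr* was 0.34 and that of *tomb* 0.25, and that of *can* ran from 0.07 to 0.20 with a library left out. Counts of *tomb* and *comr*, under 100 in each library, limit their precision most, and intervals cover only the spread between these libraries.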
